A study of Mus musculus with 2 samples.

Results

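Genomic imprinting is the silencing of 1 parental copy of a gene, set by DNA methylation marks laid down in the egg or the sperm and kept through development. Imprinted genes lie in clusters, in which a methylated control region, and often a long non-coding RNA, acts on several neighbours at once. Many of them act on fetal and placental growth, and several, among them Dlk1, Mest, Peg3, Plagl1 and Grb10, are known in the mouse for high expression before birth and a fall after it. The genes described here are 36 imprinted mouse genes chosen by name, without the Igf2, H19, Igf2r and Cdkn1c group. All 36 had a row among the 43346 Ensembl genes of the gene table, and they fall into 14 loci.

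Total RNA was measured by sequencing in the hearts of 2 pups of the inbred mouse strain B6NCrl at postnatal day 0. Replicate 1 is the heart of pup 2 and replicate 2 that of pup 3, both of pregnancy 1; sex was not collected, no treatment or genotype is labelled, and both samples carry the same donor identifier, so the descriptions alone mark them as 2 animals. With 1 group, genes are compared with each other inside each heart, and the littermates with each other. The strain is inbred and the tables hold no allelic values, so the parental origin of each transcript was not measured here, and the expressed copy is given only as background.

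The libraries held 46151722 and 44707283 expected counts, which are estimated reads per gene. Levels are given in TPM (transcript abundance), which divides reads by transcript length and by depth, and detection was set at a minimum of 1 TPM in each pup. All 6 cardiomyocyte markers were detected, with a summed level of 57277.8 and 52830.1 TPM, and so were the 6 fibroblast, 5 endothelial and 4 epicardial markers. Neural markers summed to 4.36 and 6.07 TPM with 1 of 6 detected, and 5 lung epithelium markers summed to 29.85 TPM in pup 2 and 637.9 TPM in pup 3. The RNA came from whole hearts, so fewer cells of a type and less RNA per cell cannot be told apart.

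Of the 36 imprinted genes, 23 were detected in both hearts, against 29.6% of all Ensembl genes and 54.5% of protein-coding genes. The median level of the 36 genes was 7.82 TPM, and that of all Ensembl genes, most of them undetected, 0.025 TPM. Among detected genes alone, the median was 28.5 TPM for the 23 imprinted genes and 11.1 TPM for all Ensembl genes. Levels ran from under 0.05 TPM to near 1000 TPM, with 5 genes at a mean of 100 TPM or more, 11 from 10 to 100 TPM, 8 from 1 to 10 TPM and 12 below 1 TPM. The genes summed to 2310 TPM in pup 2 and 2318 TPM in pup 3, which is 0.231% and 0.232% of all TPM. Gnas and Mest held 64.0% of that sum in each pup, and with Grb10 and Nap1l4 they held 76.6% and 76.1%. Genes known as paternally expressed were detected in 14 of 21 cases with a median of 7.29 TPM, and genes known as maternally expressed in 9 of 15 cases with a median of 8.36 TPM. These labels are background and not specific to heart. The maternal group includes Gnas and Ube3a, whose main products are not limited to 1 parental copy in most tissues.

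**Figure D1:**
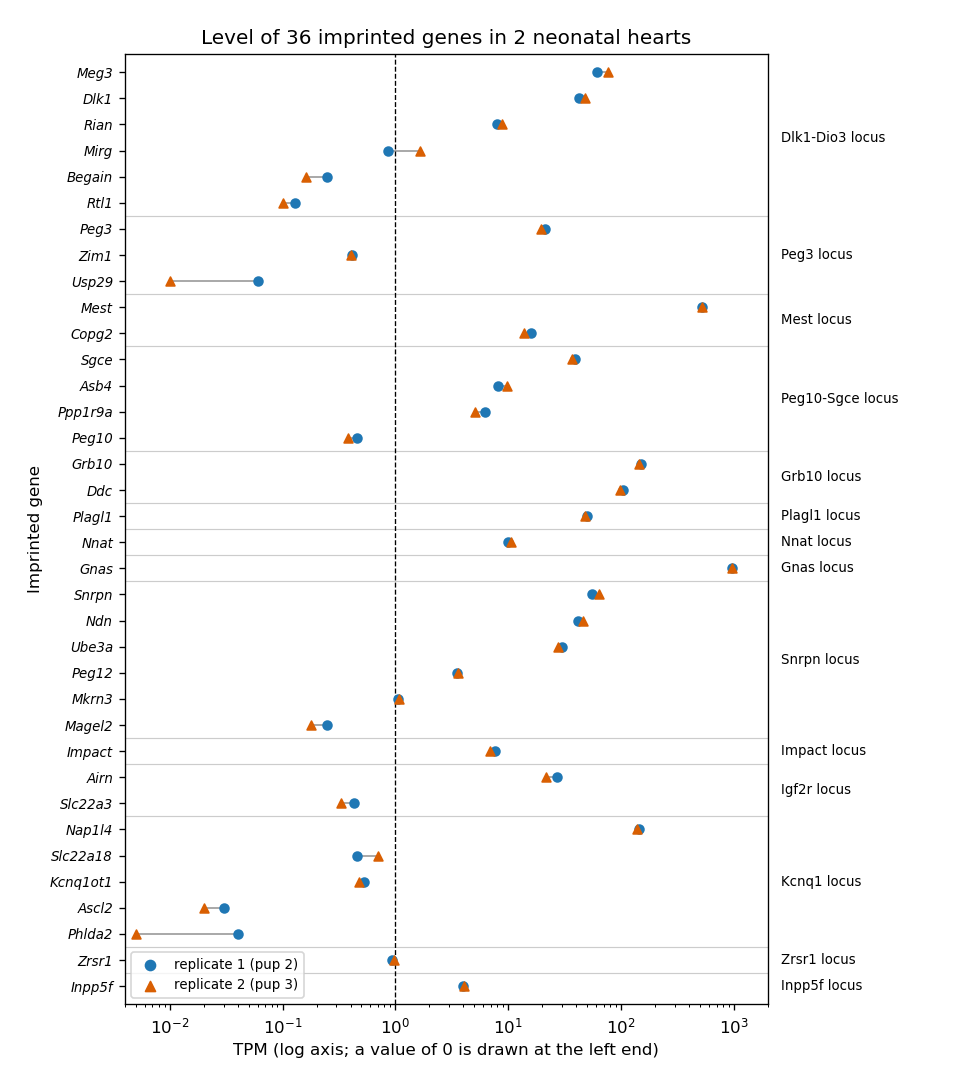
Level in TPM, on a log axis, of each of the 36 imprinted genes in replicate 1 (circles) and replicate 2 (triangles), grouped by locus, with a dashed line at 1 TPM. The marks of the pups lie close together for genes above 1 TPM, and each locus with several genes except Mest and Grb10 holds members on both sides of the line.

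The Dlk1-Dio3 locus of chromosome 12 held abundant and nearly silent genes side by side. Its maternally expressed copy carries a row of long non-coding RNAs, Meg3, Rian (a host of small nucleolar RNAs) and Mirg (a host of microRNAs). Meg3 (ENSMUSG00000021268.13, 109541001 to 109571726, plus strand) stood at 61.36 TPM in pup 2 and 76.69 TPM in pup 3. Rian, which begins 32213 bases beyond the end of Meg3, stood at 7.98 and 8.73 TPM, and Mirg, further along, at 0.86 and 1.66 TPM from 42 and 58 counts. The levels thus stepped down along the strand in both pups, with Meg3 8.26-fold above Rian and Rian 6.63-fold above Mirg in mean TPM. Mirg crossed 1 TPM in pup 3 alone and was not called detected.

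Dlk1, the paternally expressed gene of the same locus, encodes a membrane protein with EGF-like repeats that is related to the Notch ligands. It stood at 42.61 and 47.61 TPM from 2463 and 2786 counts, and Meg3 was above it in both pups, by 1.53-fold in mean TPM. Rtl1, a gene derived from a retrotransposon that is needed in the placenta, stood at 0.13 and 0.10 TPM from 30 and 24 counts, 392-fold below Dlk1. Begain, whose product binds a guanylate kinase of the synapse, stood at 0.25 and 0.16 TPM, and it was the only one of the 36 genes whose count had a deposited posterior SD above 10% of its mean, at 32.8%. Dlk1 was thus the only detected protein-coding gene of the 3 examined there.

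The locus also carries many small RNAs, which these libraries could not measure. The gene table held 60 microRNA and 23 small nucleolar RNA rows within its span, and 0 of them had a count. Of them, 10 microRNA rows and 0 small nucleolar RNA rows were longer than 99 bases, the length that the authors' effective length takes off, and the size range of the libraries was above 200 bases. Within Rtl1, on the opposite strand and hence on the Meg3 side, lie 11 mature microRNAs. They are shown by 1 arm of 4 of their hairpins, from RefSeq on GRCm38.p6, with the seed (bases 2 to 8) in capitals, because they are the products of the locus that the values above leave out.
mmu-miR-431-5p: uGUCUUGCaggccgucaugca
mmu-miR-433-3p: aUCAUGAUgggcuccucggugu
mmu-miR-127-3p: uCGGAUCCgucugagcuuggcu
mmu-miR-136-5p: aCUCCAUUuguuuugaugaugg
No seed was shared among the 15 mature microRNAs that lie within Rtl1 or Mest.

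Gnas, which encodes the stimulatory G protein alpha subunit that couples beta-adrenergic receptors to adenylyl cyclase, was the most abundant of the 36 genes. It (ENSMUSG00000027523.15, chromosome 2, 174284320 to 174346744) stood at 956.12 TPM in pup 2 and 963.48 TPM in pup 3, rank 147 among all Ensembl genes, from 59621 and 59405 counts. The deposited credibility intervals, whose width is not stated, ran from 933 to 951 TPM and from 940 to 959 TPM and did not include these values. The mouse locus has 4 groups of start sites, which from the upstream end give Nesp (maternal), the extra-large form (paternal), the non-coding exon 1A transcripts (paternal) and the G protein subunit itself, which is biallelic in most tissues. Annotated 5′ ends less than 1000 bases apart were joined into start regions to read this from the transcript table. A region's share is the summed estimated TPM of its transcripts, and reads at the start itself were not counted. A start is called in use where its transcripts held most of the gene's TPM. The fourth region, that of the G protein subunit, held 96.3% and 96.5% of the gene's TPM. The Nesp region held 1.38% in each pup, the extra-large region 0.675% and 0.580%, and the exon 1A region 1.37% and 1.30%. Transcripts of the imprinted starts thus summed to 13.2, 6.45 and 13.1 TPM in pup 2 and 13.3, 5.59 and 12.5 TPM in pup 3.

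The G protein subunit of Gnas is made in a long and a short form that differ by an exon of 45 bases (chromosome 2, 174336747 to 174336791). Transcripts with this exon, nearly all Gnas-208, stood at 603.11 and 602.55 TPM, 63.1% and 62.5% of the gene. Those without it, Gnas-206 and Gnas-207, summed to 317.97 and 327.39 TPM, 33.3% and 34.0%. Gnas-206 held 18.7% and 20.0% of the gene, and Gnas-207 14.6% and 14.01%. The long form was the more abundant in both pups. Gm20721, annotated on the opposite strand within Gnas, had 14.07 and 20.39 TPM with reads that its sequence shares with other rows (posterior SD 17.9% of the mean count); no source used here states that the counts use strand, and reads of the pair therefore cannot be told apart.

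Mest, a gene for a protein of the alpha/beta hydrolase fold, was the next most abundant, at 521.38 and 519.10 TPM (520 ± 1.61, SD, n = 2), rank 260. It lies on chromosome 6 (30723547 to 30748465), and its 3′ end overlaps that of Copg2 on the other strand by 912 bases. Copg2, a subunit of the COPI vesicle coat, stood at 15.85 and 13.85 TPM, 35.03-fold below Mest. Of 6 start regions, the fourth, at 30738050 to 30738055, held 98.8% and 98.5% of Mest TPM. The 3 regions upstream of it, the farthest 14503 bases away, each had at most 0.30 TPM in pup 2 and at most 0.12 TPM in pup 3. The windows of 250 bases before and 50 bases after a RefSeq start are printed for the region in use and for an upstream start that was nearly silent, since it is the choice between them that the shares describe; CG dinucleotides, the sites of DNA methylation, are in capitals.
Mest start in use, plus strand, chr6:30737800-30738099: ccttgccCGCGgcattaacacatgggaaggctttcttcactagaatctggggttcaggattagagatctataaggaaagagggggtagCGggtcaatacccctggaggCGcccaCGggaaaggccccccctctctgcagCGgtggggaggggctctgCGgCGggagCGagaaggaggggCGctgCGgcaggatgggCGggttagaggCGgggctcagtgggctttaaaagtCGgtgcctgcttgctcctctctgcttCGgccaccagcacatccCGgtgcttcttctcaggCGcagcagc
Mest upstream start, plus strand, chr6:30733256-30733555: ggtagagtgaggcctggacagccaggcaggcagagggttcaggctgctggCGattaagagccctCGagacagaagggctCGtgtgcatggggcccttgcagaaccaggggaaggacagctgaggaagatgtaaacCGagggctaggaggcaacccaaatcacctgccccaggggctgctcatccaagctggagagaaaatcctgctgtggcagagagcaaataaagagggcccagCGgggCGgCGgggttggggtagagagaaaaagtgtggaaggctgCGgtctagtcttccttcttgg
The window in use holds 17 CG dinucleotides and the upstream window 8. Mest also hosts miR-335 on its own strand, whose 5′ arm, with the seed in capitals, was not measured here.
mmu-miR-335-5p: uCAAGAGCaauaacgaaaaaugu

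Grb10 and Ddc are neighbours on the minus strand of chromosome 11, with 32363 bases between them. Grb10 encodes an adaptor that dampens signalling from the insulin and IGF receptors; in the mouse it is maternally expressed in most tissues and paternally expressed in neurons, from different start sites. It stood at 149.49 and 144.67 TPM (147 ± 3.41, SD, n = 2), rank 848, from 27798 and 26740 counts. Ddc, the enzyme that makes dopamine and serotonin from their amino acid precursors, stood at 104.29 and 97.12 TPM (101 ± 5.07), rank 1197. Grb10 was above Ddc in both pups, by 1.46-fold in mean TPM. Ddc is known in the mouse for paternal expression in the developing heart, from a start site other than that of most tissues; which annotated start that is, the tables do not say.

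For both genes, most of the TPM was assigned to transcripts from 1 of several annotated starts. For Ddc, the region at 11890369 to 11890408 held 93.3% and 92.6% of TPM, with Ddc-202 alone at 88.7% and 87.99%. The region farthest upstream, 7736 bases away at 11898144, had 0 TPM in both pups. For Grb10, the transcript Grb10-201 with its 5′ end at 12037401 held 95.3% and 94.9% of TPM, and Grb10-203, starting at 12027971, held 2.70% and 3.77%, or 4.04 and 5.45 TPM. The 4 RefSeq windows at these starts differ in their CG content, again in capitals.
Ddc start in use, minus strand, chr11:11890359-11890658: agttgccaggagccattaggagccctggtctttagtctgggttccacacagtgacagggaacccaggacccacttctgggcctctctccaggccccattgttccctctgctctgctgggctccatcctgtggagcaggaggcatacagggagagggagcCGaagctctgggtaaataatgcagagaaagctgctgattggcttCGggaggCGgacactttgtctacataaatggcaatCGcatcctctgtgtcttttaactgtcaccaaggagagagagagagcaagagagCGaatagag
Ddc upstream start, minus strand, chr11:11898095-11898394: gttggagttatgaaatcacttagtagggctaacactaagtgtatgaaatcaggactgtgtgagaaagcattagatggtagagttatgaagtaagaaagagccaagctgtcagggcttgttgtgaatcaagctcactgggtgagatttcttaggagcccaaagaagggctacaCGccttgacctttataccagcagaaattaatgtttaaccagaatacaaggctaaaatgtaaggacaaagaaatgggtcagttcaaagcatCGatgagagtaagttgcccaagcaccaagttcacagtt
Grb10 start in use, minus strand, chr11:12037371-12037670: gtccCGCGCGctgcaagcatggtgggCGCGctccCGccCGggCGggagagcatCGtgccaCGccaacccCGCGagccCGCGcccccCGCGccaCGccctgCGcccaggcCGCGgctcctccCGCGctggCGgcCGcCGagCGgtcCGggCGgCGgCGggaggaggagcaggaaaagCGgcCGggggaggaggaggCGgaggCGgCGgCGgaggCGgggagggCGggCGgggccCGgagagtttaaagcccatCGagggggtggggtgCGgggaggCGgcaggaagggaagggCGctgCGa
Grb10 minor start, minus strand, chr11:12027922-12028221: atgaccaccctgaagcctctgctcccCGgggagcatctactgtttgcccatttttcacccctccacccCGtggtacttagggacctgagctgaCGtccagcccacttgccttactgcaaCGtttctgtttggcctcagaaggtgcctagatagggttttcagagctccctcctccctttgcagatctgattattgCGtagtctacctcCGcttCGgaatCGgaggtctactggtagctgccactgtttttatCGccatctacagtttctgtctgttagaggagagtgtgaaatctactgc
The windows hold 5 and 2 CG dinucleotides for Ddc and 45 and 9 for Grb10, so the abundant start of Ddc lies in sequence poor in CG and that of Grb10 in sequence rich in it.

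**Figure D2:**
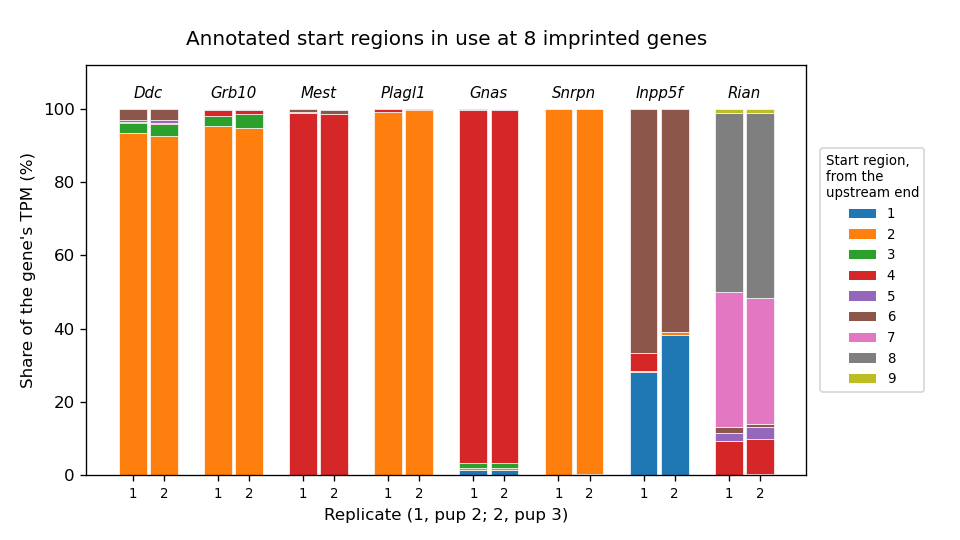
Share of each gene's TPM, in percent, held by its annotated start regions, numbered from the upstream end, in replicates 1 and 2, for the 8 genes whose leading region was not the most upstream. A lone region holds over 90% in both pups for Ddc, Grb10, Mest, Plagl1, Gnas and Snrpn, while Inpp5f and Rian are divided.

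The Peg3 locus of chromosome 7 had 1 detected gene of 3. Peg3, a zinc finger protein that is paternally expressed and known for its part in fetal growth and maternal behaviour, stood at 21.35 and 19.65 TPM from 6692 and 6238 counts. Usp29, a ubiquitin peptidase gene that starts 147 bases from Peg3 on the other strand, stood at 0.06 and 0.01 TPM from 6 and 1 counts. Zim1, a maternally expressed zinc finger gene, stood at 0.41 and 0.40 TPM. Peg3 was above each neighbour in both pups, by 50.6-fold for Zim1 in mean TPM; with 6 and 1 counts, a fold over Usp29 is not given. The annotated Usp29 transcript begins 230577 bases from the RefSeq start, so its row does not cover exons near the shared start. RefSeq windows at the shared start overlap by 263 bases, and the Peg3 window is printed, with its 13 CG dinucleotides in capitals, because it spans the start of the detected gene; the counts of Usp29 do not measure transcripts from this sequence.
Peg3 start, minus strand, chr7:6730370-6730669: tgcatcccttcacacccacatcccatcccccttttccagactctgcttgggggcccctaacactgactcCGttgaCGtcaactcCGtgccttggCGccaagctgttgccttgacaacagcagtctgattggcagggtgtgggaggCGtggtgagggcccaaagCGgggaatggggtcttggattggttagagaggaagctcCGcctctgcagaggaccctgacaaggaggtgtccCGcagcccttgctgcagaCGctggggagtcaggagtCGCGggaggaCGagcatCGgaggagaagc

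A second pair of opposed starts, those of Peg10 and Sgce on chromosome 6, lie 99 bases apart, and both genes are paternally expressed. Sgce, the epsilon-sarcoglycan of the dystrophin-linked membrane complex, stood at 39.07 and 36.88 TPM. Peg10, derived from a retrotransposon and needed in the placenta, stood at 0.46 and 0.38 TPM from 80 and 76 counts. Sgce was thus 90.4-fold above Peg10 in mean TPM. Asb4, a maternally expressed subunit of a ubiquitin ligase, stood at 8.07 and 9.73 TPM, and Ppp1r9a, the actin-binding protein neurabin, at 6.24 and 5.05 TPM. Sgce exceeded them by 4.27-fold and 6.73-fold in mean TPM in this locus of 759 kilobases.

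The Prader-Willi and Angelman region of chromosome 7 contributed 6 genes, 5 of them detected. Snrpn, which encodes the splicing protein SmN known for expression in brain and heart, stood at 54.74 and 63.72 TPM. It was 3.99-fold below Snrpb, the widely expressed gene for the closely related SmB, which stood at 240.46 and 232.54 TPM. Ndn (necdin), a MAGE family protein, stood at 41.26 and 45.56 TPM. Magel2, another MAGE gene 26747 bases from it, stood at 0.25 and 0.18 TPM, 202-fold lower. Mkrn3, a ring finger gene known from human genetics for restraining puberty, reached 1.06 and 1.07 TPM from 99 counts in each pup and so lay at the limit of detection. Peg12, a relative of the Frat inhibitors of GSK3, stood at 3.54 and 3.60 TPM.

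Ube3a, the ubiquitin ligase gene whose paternal copy is silent in neurons but not in most other tissues, stood at 29.63 and 27.36 TPM. Snrpn was above it in both pups by 2.08-fold in mean TPM, and this order turns round when counts are not divided by transcript length, with Ube3a the longer at 5097 bases against 1932 bases. Snhg14, the long non-coding RNA that runs from the Snrpn side toward Ube3a on the other strand, stood at 5.37 and 4.42 TPM. Of Snrpn TPM, 100% and 99.8% fell to Snrpn-201, which starts at 60005111. Snrpn-202, from a start 135108 bases upstream, had 0 and 0.13 TPM. Snurf, annotated inside the Snrpn span on the same strand, stood at 45.90 and 51.25 TPM from 205 and 226 counts. Its posterior SD was 7.96% of the mean count, and how reads divide between the rows of Snurf and Snrpn was not tested. Within the locus, 210 small nucleolar RNA rows had 0 counts, all of them at most 94 bases long and thus too short for the quantification.

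In 4 further places an imprinted gene overlaps a partner on the opposite strand, and in each the partner was the more abundant. Airn, the paternally expressed non-coding RNA that silences Igf2r on the same chromosome copy, stood at 27.18 and 21.76 TPM, and Igf2r at 46.17 and 39.84 TPM, 1.76-fold higher. The closeness rests on length, with 815 and 683 counts for Airn (885 bases in pup 2) and 15132 and 12962 for Igf2r (8687 bases in pup 2). On counts not divided by length the log2 ratio was -4.23, against -0.79 in TPM. Kcnq1ot1, the paternally expressed RNA inside the potassium channel gene Kcnq1, had 1711 and 1512 counts over 84395 bases, which gives 0.53 and 0.48 TPM. Kcnq1 stood at 28.28 and 27.53 TPM, 55.3-fold above it, so the count of Kcnq1ot1 was large and its level per length low. Nnat (neuronatin), a small membrane protein inside Blcap, stood at 9.93 and 10.46 TPM, and Blcap, a gene first described in bladder cancer, at 37.67 and 37.00 TPM, 3.66-fold higher. Zrsr1, an intronless relative of a splicing factor inside Commd1, stood at 0.94 and 0.98 TPM, and Commd1, a copper and NF-kappaB regulator, at 285.81 and 284.53 TPM, 297-fold higher. Without stated strand use, reads from sequence that both genes of such a pair cover cannot be told apart.

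The Igf2r and Kcnq1 clusters also hold Slc22a3, Phlda2 and Ascl2, and none of them was detected. Slc22a3, an organic cation transporter, stood at 0.43 and 0.33 TPM, 113-fold below Igf2r. Slc22a18, a transporter of the Kcnq1 cluster, stood at 0.46 and 0.70 TPM from 21 and 35 counts. Phlda2, which restrains placental growth, had 1 and 0 counts, and a count of 0 allows up to 0.121 TPM in pup 3, for counting error only. Ascl2, a transcription factor of the trophoblast, had 2 and 1 counts. Nap1l4, a histone chaperone in the Kcnq1 cluster, stood apart from them at 142.60 and 136.90 TPM (140 ± 4.03, SD, n = 2), rank 886, and was 3.20-fold above its relative Nap1l1 at 43.73 and 43.66 TPM.

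**Figure D3:**
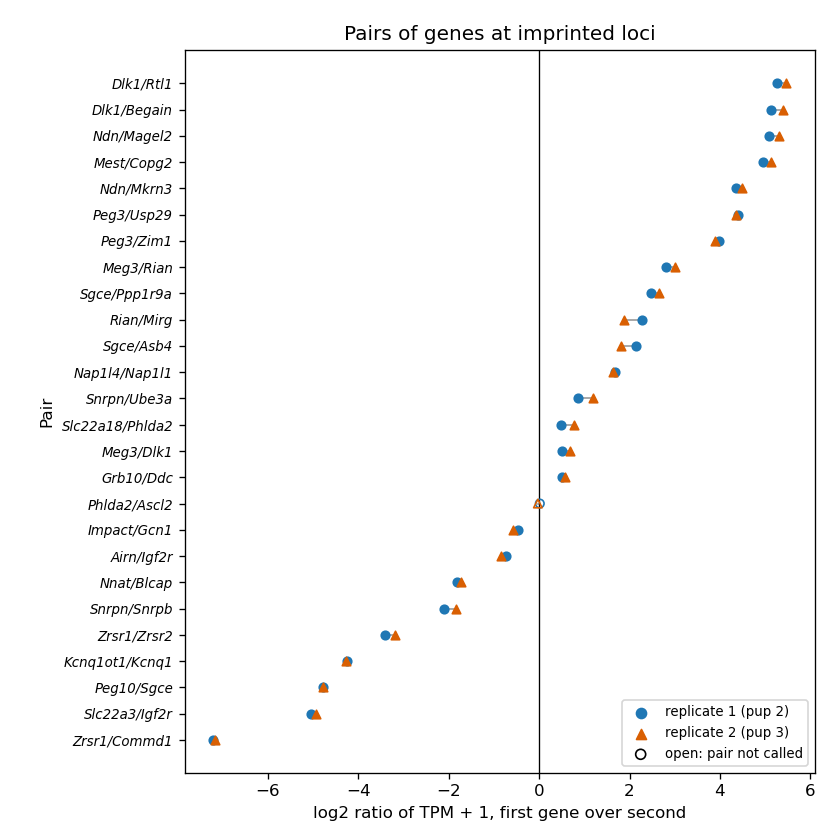
Ratios, as log2 of TPM + 1, of the gene named first to the other, in each pup, for 26 pairs of neighbours or relatives at imprinted loci (circles, replicate 1; triangles, replicate 2). For 25 pairs the pups lie on the same side of 0, and the pair drawn open, Phlda2 and Ascl2, was not called.

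Of 26 pairs examined, the gene named first was higher in 16, the second in 9, and 1 pair was not called. A pair was called where the deposited credibility intervals of the 2 genes lay apart in each pup, the ratio had the same sign in both, and its mean exceeded the difference between the pups. With 2 hearts an exact sign-flip test cannot give a two-sided p below 0.5, so no p is given. Some pairs called on an undetected partner, such as Slc22a18 over Phlda2, rest on few counts. Others do not, as Kcnq1ot1 was undetected with 1711 and 1512 counts. The least separated called pairs in log2 ratio were Impact and Gcn1 at -0.53, Grb10 and Ddc at 0.54, Meg3 and Dlk1 at 0.60, and Slc22a18 and Phlda2 at 0.63.

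Plagl1, Impact and Inpp5f are the lone genes of their loci here. Plagl1, a zinc finger growth regulator at the centre of a network of imprinted genes, stood at 50.13 and 48.23 TPM, with 99.2% and 99.6% of TPM at a start region 30187 bases inside its most upstream end. Impact, which holds back the stress kinase GCN2 by binding Gcn1, stood at 7.64 and 6.94 TPM, and Gcn1 at 10.99 and 10.93 TPM, 1.503-fold higher. Inpp5f, a phosphoinositide phosphatase, stood at 3.99 and 4.04 TPM and was divided between starts. In the mouse brain a shorter Inpp5f form from an internal start is imprinted while the long form is not. Transcripts from the internal start region, 76218 bases from the upstream end, held 66.7% and 60.9% of TPM, and those from the upstream region 28.1% and 38.4%, from 440 and 413 counts in all.

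Across the 17 detected members with several annotated transcripts, the most abundant transcript was the same in both pups in 17 cases, against 92.3% of 8962 such genes in all. The credibility intervals of the leading and the next transcript lay apart in 15, the exceptions being Rian and Ppp1r9a. Rian-213 held 33.8% and 44.8% of Rian TPM and Rian-202 33.7% and 31.3%. For Meg3, the transcript Meg3-205 held 67.7% and 64.4%, Meg3-207 15.6% and 14.9%, and Meg3-211 9.88% and 10.8%. Of the 17 genes, 14 had more than 1 start region, and a single region held 90% or more of TPM in both pups in 9. Ppp1r9a passed it in pup 2 (92.5%) and not in pup 3 (89.9%), and Asb4 in pup 3 (91.5%) and not in pup 2 (88.5%). In 8 the leading region was not the most upstream: Snrpn, Plagl1, Mest, Gnas, Grb10, Ddc, Inpp5f and Rian. Start regions and intervals lying apart were counted for these 17 genes only. No share over all genes stands beside those counts, so whether they are particular to imprinted genes was not tested. Leading transcripts of the protein-coding members were Peg3-201 (91.3% and 95.2%), Dlk1-205 (84.9% and 86.0%), Copg2-201 (73.9% and 80.5%), Plagl1-202 (72.5% and 70.5%), Sgce-205 (65.3% and 68.7%) and Nnat-202 (59.7% and 61.2%).

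The sequence at the starts was compared over the RefSeq windows. There were 48 windows for 31 of the 36 genes. Their median content was 13 CG dinucleotides in 300 bases, against 7 in all 32851 windows, and 31 of the 48 held 10 or more, against 43.5% of all. The motif TGCCGC, which the imprint-keeping factor ZFP57 binds when methylated, was sought on both strands. It stood in 9 of the 48 windows (18.8%), of 8 genes, and in 11.6% of all windows. The Mest window in use held it 2 times, and the Grb10 window in use 1 time. Windows of 1 gene overlap in places, and a match describes letters only.

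Pup 3 and pup 2 were about as close in their imprinted genes as over all genes. Among the 27 genes whose mean count was at least 50, 0 reached a log2 ratio of 1 in either direction, against 0.498% of 13463 genes in all, and 0 reached a 1.5-fold difference, against 2.07%. Ratios were of counts scaled by the TMM method, pup 3 over pup 2, and ran from -0.22 for Airn to 0.48 for Mirg, with 12 genes higher and 15 lower in pup 3. The median absolute log2 ratio was 0.0880, and 0.104 for all genes. In the Dlk1-Dio3 locus the log2 ratio was 0.27 for Meg3, 0.17 for Rian, 0.48 for Mirg and 0.21 for Dlk1. The other members of the locus, with mean counts under 50, had ratios below 0, at -0.27 for Rtl1 (30 and 24 counts) and -0.53 for Begain (20 and 13.2 counts). For both, and also for Rian and Mirg, the 95% counting intervals of the pups overlapped, so the direction of none of these is settled. The intervals of Meg3 and of Dlk1 lay apart. Erythroid markers, of which 3 of 4 were detected, summed to 6033 TPM in pup 2 and 3914 TPM in pup 3. Fibroblast markers summed to 1248.65 and 1344.34 TPM, cardiomyocyte markers were lower and lung epithelium markers higher in pup 3 as given above, and the part of these markers in the ratios was not tested. Asb4 (0.31), Snrpn (0.23) and Ndn (0.16) were also higher in pup 3, and Ppp1r9a (-0.19) lower. Gnas, Mest and Grb10 differed by log2 ratios of 0.03, -0.0016 and -0.03. The n of 2 gives the spread between these pups only, and no test of the difference was possible.

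**Figure D4:**
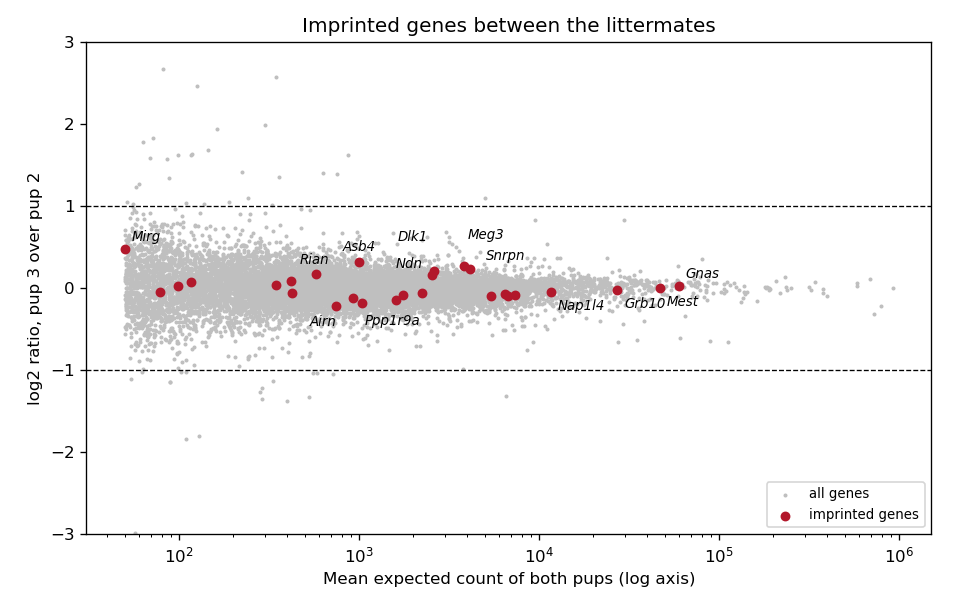
The log2 ratio of pup 3 over pup 2 against the mean expected count of both pups (log axis) for 13463 genes (grey) and 27 imprinted genes (red), with dashed lines at log2 ratios of 1 and -1. All 27 lie between -0.22 and 0.48, and 19 genes of the background lie outside the axis.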

How the data were processed

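Each library was sequenced from total RNA of a heart, extracted with the Ambion mirVana kit, with 10 ng input and spike-ins, per the labels. Values were quantified by the authors on mm10 with GENCODE M4, per the deposited read-me; the aligner and the versions of tools were not given in the sources used here. Per the file headers, expected counts estimate the reads of each feature. The deposited TPM divides them by effective length (length minus 99 bases) and scales to all features, and the deposited FPKM by length and reads. The deposited percent gives how much of a gene's TPM a transcript holds. The deposited credibility bounds are a signal in TPM units, and the posterior SD of the count is a score in the authors' tables.

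Symbols and coordinates came from GENCODE M21 on the same build, which matched 42462 genes. Counts were rounded and scaled with edgeR 4.0.16 (TMM, prior count of 2, R 4.3.3); DESeq2 1.42.0 size factors, other thresholds, pseudocounts of 0.1 and 0.5, posterior means, FPKM and leaving out a replicate were alternatives. Pairs used a pseudocount of 1 TPM. Scripts were tested on simulated data. Python 3.11.15 was used. Spike-ins held 0.000568% and 0.000550% of counts, and features named by a number 7.80e-05% and 8.72e-05%. A floor of 3 counts and intervals cover counting error only.

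The members, lists and pairs were chosen with earlier results of these data known. Named were all 36 genes by locus, the partner of each pair, the 4 most abundant of each other list, and for transcripts the leading ones. Snhg14, Snurf, Gm20721, Zfp57, Dcn and single minor transcripts were named after their values were seen. Dnmt1, Uhrf1, Dppa3, Ctcfl, Zfp42 and Nlrp2 were also named from outside the 4 most abundant of their list.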

Additional observations from a re-analysis of the deposited data

How the results depend on the processing

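The number of detected members, 23 as reported, ranged from 22 (2 TPM, or FPKM) to 33 (10 expected counts), with 23 and 24 when a replicate was left out. The median level of the 36 genes was 7.82 TPM, 8.003 TPM from posterior means and 9.62 TPM after rescaling over nuclear genes, and 7.81 to 7.84 TPM with a replicate left out. All 25 called pairs stayed called under each alternative run. The interval condition used the same deposited TPM bounds each time, so the alternatives re-examined the ratios only. The order of Snrpn and Ube3a was reversed on expected counts not divided by length, with a log2 ratio of -0.39; its construction omits length. With no count minimum, 1 member, Usp29 (6 and 1 counts), passed a log2 ratio of 1, and 0 did under the other alternatives. The leading transcript was the same in 17 of 17 genes by count shares, in 16 of 17 by posterior mean percent and in 16 of 16 genes at 5 TPM. The counts of 32 other imprinted genes and 12 imprint regulators ranged from 31 to 40 and from 12 to 13, under alternatives chosen after seeing the data. Depth limits 9 genes with a mean count under 50: Rtl1, Begain, Usp29, Zim1, Magel2, Slc22a3, Slc22a18, Phlda2 and Ascl2. No paired analysis was possible because there was 1 group.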

Other observations

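The RNAs of 16 genes listed for proteins that keep imprints were measured in the same hearts. Of them, 12 were detected, against 54.5% of protein-coding genes, and the median of the 16 was 9.75 TPM. Trim28, the co-repressor that gathers silencing enzymes at imprinted regions, stood at 53.60 TPM in pup 2 and 51.72 TPM in pup 3. Hdac3, a histone deacetylase, stood at 49.32 and 49.03 TPM, Ctcf, the insulator protein that binds unmethylated control regions, at 31.53 and 31.61 TPM, and Arid4b, a chromatin protein known from the Snrpn locus, at 22.55 and 24.22 TPM. Zfp57, the zinc finger protein that brings Trim28 to methylated imprints, stood at 7 and 7.56 TPM. Dnmt1 and Uhrf1, which copy DNA methylation when cells divide, stood at 9.95 and 9.74 TPM and at 10.06 and 10.93 TPM. The germline and early embryo genes Dppa3, Ctcfl, Zfp42 and Nlrp2 were not detected, the last 2 with 0 counts in both pups.

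Among 49 other genes listed as imprinted, 32 were detected, against 29.6% of all Ensembl genes and 54.5% of protein-coding genes. The median of the 49 genes was 9.99 TPM. The most abundant were Igf2, the fetal growth factor, at 784.66 and 712.74 TPM, Cd81, a tetraspanin, at 616.52 and 599.46 TPM, Commd1, given above, and the non-coding RNA H19 at 247.56 and 238.25 TPM. Gnas thus stood above Igf2 in both pups in TPM. Dcn, the matrix proteoglycan decorin, followed at 206.19 and 237.11 TPM.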
